A study of Mus musculus with 369 samples.

Results

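The genes described here are 42 genes of mitosis and of the spindle, from the cyclins that start cell division to the proteins that part the daughter cells. The set was given by name, and all 42 names were found among the 23337 genes of the count table. Their levels were followed over single microglia, the resident macrophages of the brain, of male mice at postnatal day 7 on a C57BL6J background. Each genotype, wild type and a Trem2 knockout (labelled TREM2_KO), was sorted through a gate for low CD45 and positive CD11 (cells called unselected here) and through a narrower gate that also asked for Gpnmb and Clec7a at the surface (called gated). The microglia that carry Gpnmb and Clec7a at this age are known as a state of the growing white matter, and Trem2 is a surface receptor for lipids. Which allele the knockout carries is not stated in the labels.

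Cells were profiled with Smart-seq2, in which the RNA of a single sorted cell is amplified in its own well, without molecular identifiers. By the 3 quality criteria of the labels 334 cells passed. In wild type these were 78 of 90 unselected and 90 of 93 gated cells, and in the knockout 90 of 93 unselected and 76 of 93 gated cells. Values for all 4 groups are given in this order below. A group is 1 sample, because all its cells share 1 plate and no animal is named. Plate, gate and genotype therefore cannot be told apart, and no difference given here has a test or a replicate check. Passing cells had 157653 to 1051282 gene counts. The median number of detected genes after thinning each cell to 100000 gene counts was 2288 and 2638 in wild type (unselected, then gated) and 1939 and 3457 in the knockout. The median gene count per spike-in count was 24.9, 39.8, 18.1 and 53.7 in the same order. This ratio measures RNA per cell only if all plates received equal spike-in amounts, which was not tested. Trem2 itself stood at 1115 CPM (counts scaled to a total of 1e6 gene counts) in wild-type unselected and 1604 CPM in wild-type gated cells, and at 229 and 413 CPM in the knockout groups.

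A cell that divides first copies its DNA and then enters mitosis. Cdk1 with its cyclins drives the entry, the chromosomes condense, and kinesin motors and their partners build the spindle. A checkpoint holds the cell until every chromosome is attached, after which a ubiquitin ligase with Cdc20 starts anaphase, and cytokinesis parts the daughters. Most of these genes are transcribed late in the cycle, and their promoters are known for CCAAT boxes, bound by NF-Y, and for the cell cycle homology region (CHR), bound by the MuvB complexes with B-Myb and FoxM1 or with repressors. In mouse brain, microglia divide widely in the first postnatal weeks.

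Promoters of 33 of the 42 genes were found in RefSeq (GRCm38.p6), each from 250 bases before to 50 after the first listed start. Printed here are those of the genes that the results below turn on. Capitals mark CCAAT or its reverse strand ATTGG, and the CHR letters TTTGAA (reverse strand TTCAAA) and TTCGAA, which reads the same on both strands. The windows are chr10:69352863-69353162 (minus strand) for Cdk1, chr9:70421505-70421804 (minus strand) for Ccnb2, chr11:99024140-99024439 (minus strand) for Top2a, chr7:135716330-135716629 (minus strand) for Mki67, chr19:37376132-37376431 (plus strand) for Kif11 and chr3:40799701-40800000 (plus strand) for Plk4. All are written 5′ to 3′ in the direction of the gene. In mm10, by GENCODE M21, Cdk1 (ENSMUSG00000019942.13) spans chr10:69335146-69352938, Ccnb2 (ENSMUSG00000032218.7) spans chr9:70407692-70421547, Top2a (ENSMUSG00000020914.17) spans chr11:98992943-99024189, Mki67 (ENSMUSG00000031004.8) spans chr7:135689784-135716361, Kif11 (ENSMUSG00000012443.4) spans chr19:37376403-37421859 and Plk4 (ENSMUSG00000025758.10) spans chr3:40800019-40816883.
Cdk1: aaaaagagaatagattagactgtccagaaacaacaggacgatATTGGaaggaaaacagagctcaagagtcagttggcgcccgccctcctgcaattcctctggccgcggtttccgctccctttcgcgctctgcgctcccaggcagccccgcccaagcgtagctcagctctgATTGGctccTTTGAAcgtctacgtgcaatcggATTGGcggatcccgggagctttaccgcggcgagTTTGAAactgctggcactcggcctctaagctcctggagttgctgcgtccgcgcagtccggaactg
Ccnb2: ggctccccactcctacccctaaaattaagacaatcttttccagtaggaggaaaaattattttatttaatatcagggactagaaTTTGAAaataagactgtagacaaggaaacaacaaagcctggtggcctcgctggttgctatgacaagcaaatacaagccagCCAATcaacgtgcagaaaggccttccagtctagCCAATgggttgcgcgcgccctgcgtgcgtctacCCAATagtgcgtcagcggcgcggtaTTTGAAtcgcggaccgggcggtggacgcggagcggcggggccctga
Top2a: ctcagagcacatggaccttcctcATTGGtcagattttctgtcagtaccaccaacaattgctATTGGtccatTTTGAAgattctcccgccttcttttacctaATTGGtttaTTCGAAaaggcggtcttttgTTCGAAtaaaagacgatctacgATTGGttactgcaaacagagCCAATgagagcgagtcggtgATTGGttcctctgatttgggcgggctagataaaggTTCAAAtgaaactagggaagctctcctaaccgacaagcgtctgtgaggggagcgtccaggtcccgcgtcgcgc
Mki67: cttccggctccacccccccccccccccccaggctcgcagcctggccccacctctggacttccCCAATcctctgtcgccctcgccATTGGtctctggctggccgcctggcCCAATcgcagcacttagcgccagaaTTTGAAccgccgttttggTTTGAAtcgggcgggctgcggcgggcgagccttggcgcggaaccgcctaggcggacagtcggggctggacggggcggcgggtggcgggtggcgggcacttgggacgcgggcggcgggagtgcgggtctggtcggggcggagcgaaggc
Kif11: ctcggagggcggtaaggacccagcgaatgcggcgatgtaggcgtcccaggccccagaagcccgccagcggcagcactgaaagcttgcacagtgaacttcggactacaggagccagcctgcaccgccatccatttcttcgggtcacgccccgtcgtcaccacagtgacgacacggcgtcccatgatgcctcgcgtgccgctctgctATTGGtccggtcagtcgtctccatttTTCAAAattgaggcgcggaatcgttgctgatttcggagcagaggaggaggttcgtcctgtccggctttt
Plk4: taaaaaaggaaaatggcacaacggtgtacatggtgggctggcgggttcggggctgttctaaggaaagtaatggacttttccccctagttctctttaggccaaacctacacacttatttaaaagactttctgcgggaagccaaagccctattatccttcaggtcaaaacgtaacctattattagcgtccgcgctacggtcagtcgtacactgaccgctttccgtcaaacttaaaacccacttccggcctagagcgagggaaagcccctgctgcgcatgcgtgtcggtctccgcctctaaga
The Top2a window held 6 CCAAT matches, 2 of TTTGAA and 2 of TTCGAA. Cdk1, Ccnb2 and Mki67 each had 3 CCAAT matches and 2 of TTTGAA, Kif11 had 1 of each, and Plk4 had none.

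Among the 33 promoters, 26 held a CCAAT match (78.8%) and 26 held TTTGAA (78.8%), against 37.9% and 18.1% of 27025 promoters of all genes. TTCGAA was in 3 of them (9.09%), against 1.57% of all. A CCAAT match together with either CHR form was found in 24 of the 33 (72.7%) and in 7.70% of all promoters. In 53 promoters of other genes of mitosis this pair was in 25 (47.2%), and in 27 promoters of DNA replication genes it was in 3. Both strands were searched, and overlapping matches were counted separately. A match describes the letters and is not a measured site.

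The genes were found together in a minority of cells. Taking a cell with counts for 10 or more of the 42 genes after thinning as a cell with several of them, there were 22 of 78 wild-type unselected cells (28.2%, 95% Clopper-Pearson interval 18.6 to 39.5%). The wild-type gated group held the smallest share, 10 of 90 (interval 5.46 to 19.5%). Among knockout cells the shares were 27.8% in the unselected group (25 of 90, 18.9 to 38.2%) and 30.3% in the gated group (23 of 76, 20.2 to 41.9%). The gated share was thus 17.1 percentage points below the unselected one in wild type and 2.49 points above it in the knockout. At this threshold the intervals of the gated groups did not overlap each other, whereas those of the wild-type groups did. Both pairs overlapped at 5 or more genes, and neither pair did at 20 or more. All intervals cover counting error only: reads amplified from 1 molecule are not independent, and differences between animals or plates are not covered. Without thinning the shares were 38.5%, 15.6%, 34.4% and 32.9% in the order given.

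**Figure D1:**
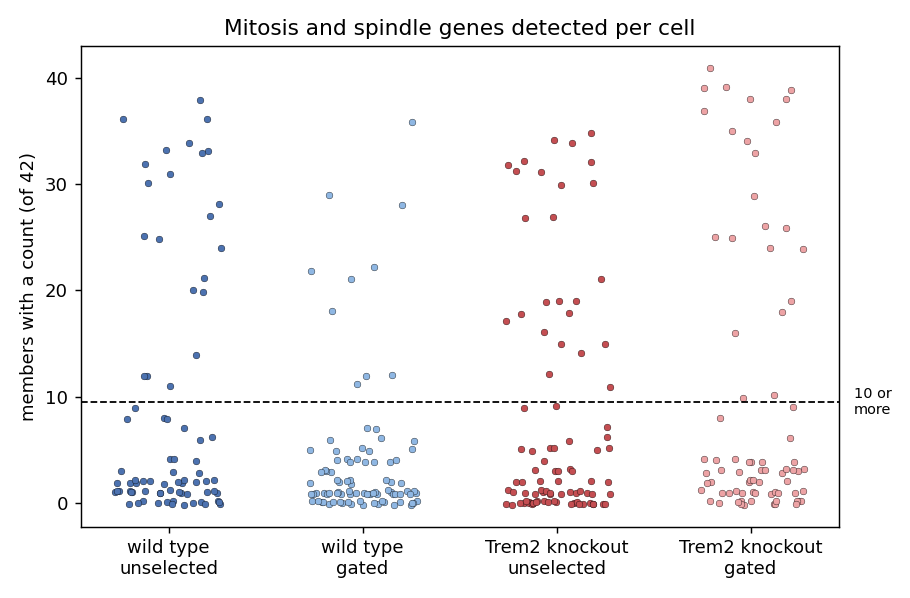
Number of the 42 genes with at least 1 count in each cell after thinning to 100000 gene counts (vertical axis), by group; 1 point is 1 cell and the dashed line marks 10 genes. Most cells lie near the bottom, and 22, 10, 25 and 23 cells of the 4 groups lie above the line.

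The number of genes per cell was a range with 1 dense end. The median cell had counts for 2 (unselected) and 1 (gated) of the genes in wild type, and for 2 and 3 in the knockout. The highest cells had 38, 36, 35 and 41. No gene was found in 14, 22, 26 and 14 cells. Few cells lay near the threshold: 4, 0, 2 and 2 cells had 8 or 9 genes, and 3, 3, 2 and 2 cells had 10 to 12. At 20 or more genes the shares were 23.1%, 6.67%, 14.4% and 23.7%, and at 30 or more there were 10, 1, 10 and 11 cells. The wild-type gated group was lowest at each of these thresholds.

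These few cells held most of the counts. They carried 84.2% of the summed counts of the 42 genes among unselected and 72.2% among gated wild-type cells, and 89.7% and 90.9% in the knockout. The single highest cell gave 15.5%, 17.3%, 9.93% and 15.1% of its group's counts. Over all 80 such cells Mki67, a protein that coats mitotic chromosomes, was detected in 97.5%. Top2a, the topoisomerase that untangles replicated DNA, followed with 83.8%, and Birc5, the survivin subunit of the chromosomal passenger complex, with 82.5%. Ccna2 (cyclin A2) was found in 81.2% and Cdk1 in 80%. In the 254 other cells the most frequent were the condensin subunit Smc4 (18.9%), the anaphase inhibitor Pttg1 (16.5%), Cdk1 (13.0%), the centromere histone Cenpa (12.2%), the condensin subunit Smc2 (11.8%) and Ccnb2 (10.2%). The transcription factor Foxm1 and the checkpoint kinase Ttk were in 0 of these 254. The threshold itself makes the genes frequent above it, so these shares are a description. High levels also occurred below it: the highest summed level in a cell with fewer genes was 10665 CPM in wild-type unselected and 2665 CPM in wild-type gated cells. In the knockout it was 5406 CPM in unselected and 1237 CPM in gated cells.

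The level in the cells with several of the genes differed between groups in another order than the share. Their summed CPM over the 42 genes ran from 79.3 over a median of 2286 to 22738 in the 22 wild-type unselected cells. In the 10 wild-type gated cells it ran from 162 over 5906 to 11635. The 25 knockout unselected cells had the highest median, 12001 CPM, with a range of 413 to 28568. The 23 knockout gated cells had 369.6, 3569.8 and 14696 CPM as lowest, median and highest. The ranges overlapped widely in all groups. Counted per 1000 spike-in counts, the medians were 59.5, 318, 184 and 190.0, so the difference between unselected and gated knockout cells was present per gene count (log2 ratio of the medians, gated over unselected, -1.75) and not per spike-in count (0.05).

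**Figure D2:**
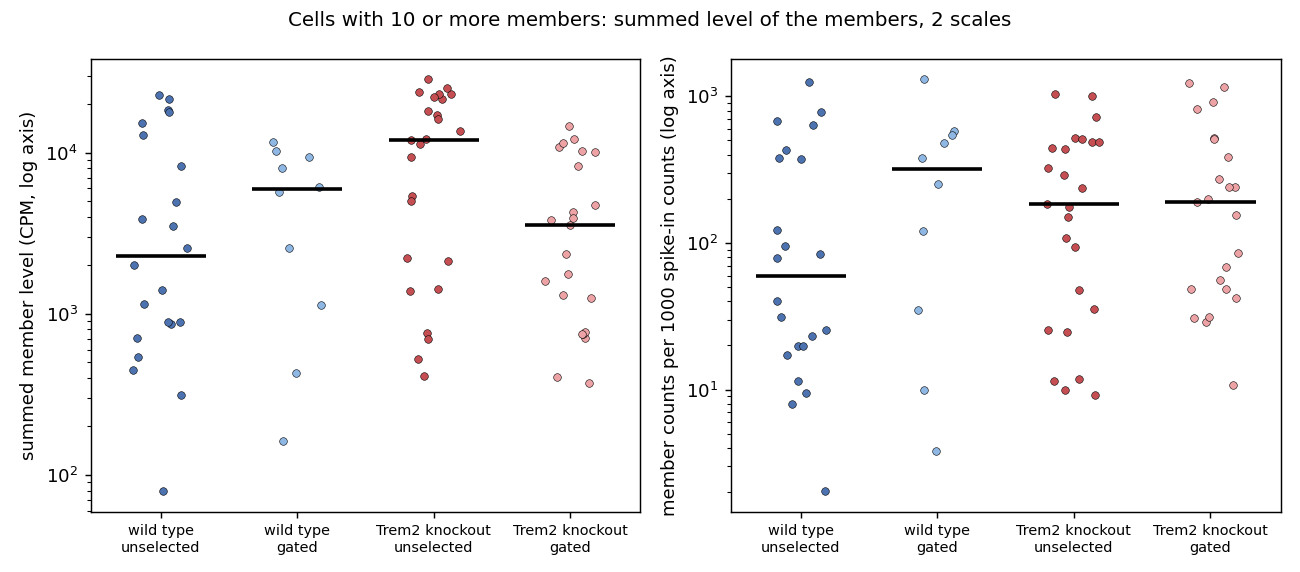
Summed level of the 42 genes in each cell with 10 or more of them, as CPM (left) and per 1000 spike-in counts (right), both on log axes; points are cells and bars are medians. On the left the knockout unselected median (12001 CPM) is highest, and on the right the wild-type gated median (318) is highest.

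Within each group the cells spread over more than 10-fold. Of the 80 cells, 20 had under 1000 CPM in sum, namely 8 unselected and 2 gated wild-type cells and 4 unselected and 6 gated knockout cells. In these 20 the median thinned count per detected gene was 2.00, against 20.0 in the other 60 cells. Of the 80, 62 had 10 or more genes at 3 or more counts each. Asking for 3 counts gave shares of 19.2%, 8.89%, 23.3% and 23.7%. The cells with several of the genes also had more detected genes than the other cells of their group, with medians of 3502 against 1922, 3339 against 2558, 2519 against 1822 and 4533 against 3230.0. What part this has in the detection of the 42 genes was not tested.

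**Figure D3:**
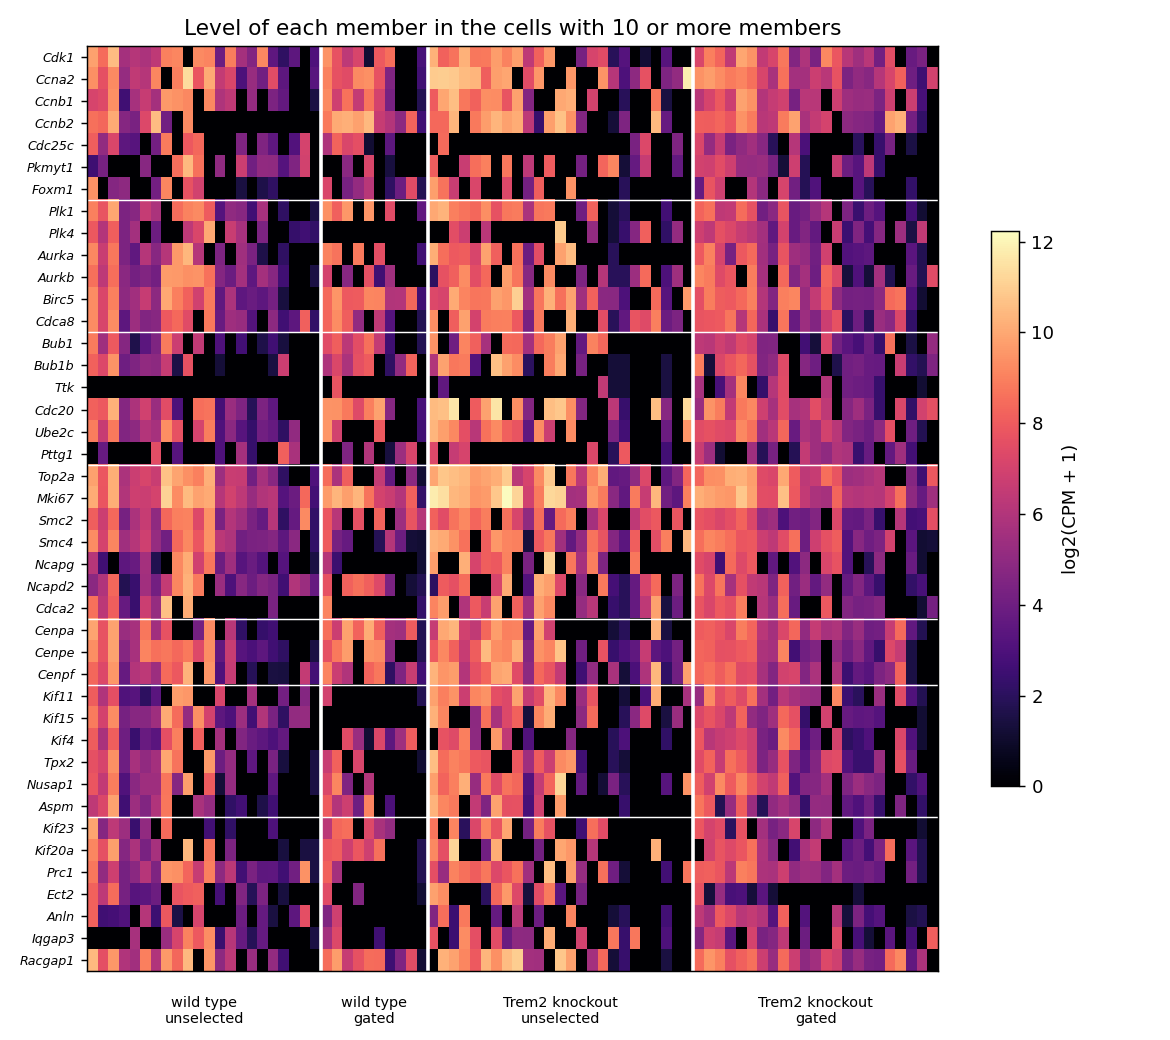
Level of each of the 42 genes (rows, grouped by role) in the 80 cells with 10 or more of them (columns, grouped by group and sorted by the number of genes), as log2(CPM + 1) in unthinned counts; black is 0. Mki67 is present in nearly every column, while Plk4, Kif15, Kif11 and Ncapg are black in most or all of the 10 wild-type gated columns.

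Which of the genes were found in the 10 wild-type gated cells differed from the other groups. Mki67 and Birc5 were in 10 of the 10, and Ccnb2 (cyclin B2) and Cenpa in 9. Plk4, the kinase that starts centriole duplication, and the spindle kinesin Kif15 were in 0 of 10, which allows shares of up to 30.0%. The spindle motor Kif11, the condensin subunit Ncapg and the phosphatase adaptor Cdca2 were in 1 cell each. In the other groups Kif15 was in 20 of 22 wild-type unselected cells and, in the knockout, in 15 of 25 unselected and 15 of 23 gated cells. Plk4 was in 13, 8 and 16 of them. Ccnb2 was in 9 of 22, 17 of 25 and 20 of 23. By role, the share of cells with a gene was averaged over the genes of that role. For the 6 spindle genes it was 35% in these wild-type gated cells, against 62.9%, 54% and 67.4% in the other groups, in order. At least 1 spindle gene was found in all 10 of these cells, and in 21 of 22, 24 of 25 and 20 of 23 in the other groups. For the chromosome structure genes the averages were 47.1% against 77.9%, 74.9% and 74.5%. For the centromere genes Cenpa, Cenpe and Cenpf they were 76.7% against 65.2%, 68% and 79.7%. The choice of these genes was made after their values were seen, and only 10 cells stand behind the wild-type gated values.

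DNA replication genes, which are used before mitosis, were found beside the mitosis genes in some groups more often than in others. Of 33 such genes (the Mcm helicase, ribonucleotide reductase and others), 10 or more were found in 20 of the 22 wild-type unselected cells with several mitosis genes, 2 of the 10 wild-type gated, and 12 of the 25 unselected and 19 of the 23 gated knockout cells. The median numbers were 15.0, 5.50, 9.00 and 18.0. In the other cells 14 of 56, 8 of 80, 11 of 65 and 8 of 53 had 10 or more, with medians of 3.50, 2.00, 1.00 and 3.00. Counting all 4 groups, 53 of 80 and 41 of 254 cells reached 10. The cells with several mitosis genes had medians of 3502, 3339, 2519 and 4533 detected genes, whose part in these counts was not tested.

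**Figure D4:**
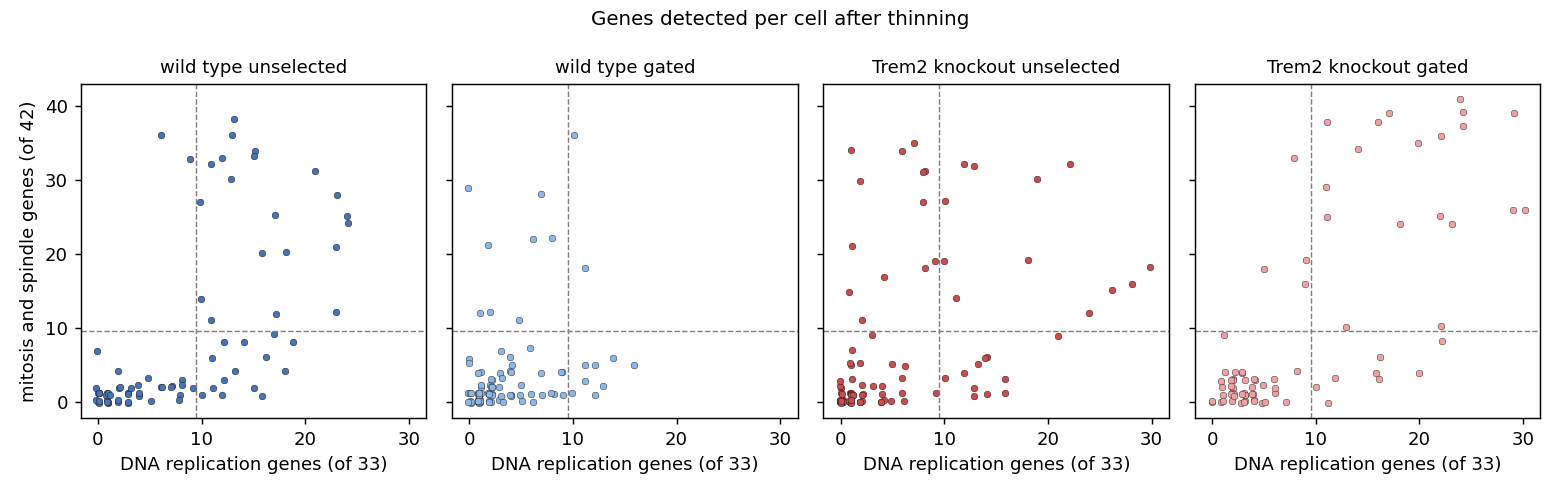
Each cell by the number of DNA replication genes (horizontal axis, of 33) and of mitosis and spindle genes (vertical axis, of 42) with a count after thinning, 1 panel per group; dashed lines mark 10 genes on each axis. The upper right field holds 20, 2, 12 and 19 cells, and the upper left field 2, 8, 13 and 4.

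In the knockout unselected group the cells with several mitosis genes divided about evenly, with 12 having 10 or more replication genes and 13 having fewer. Ccnb2 was in 5 of the 12 and 12 of the 13, the checkpoint kinase Bub1b in 2 and 9, the anaphase activator Cdc20 in 5 and 11, and the cytokinesis factor Ect2 in 1 and 8. Aspm, a spindle pole protein, was in 3 and 8. In the other direction Ccna2 was in 11 and 8, Smc2 in 11 and 7, the passenger subunit Cdca8 in 11 and 7, Pkmyt1, an inhibitory kinase of Cdk1, in 7 and 4, and Plk4 in 6 and 2. Kif15 was in 8 and 7. The 12 and the 13 also differed in general, with overlapping values. The median number of mitosis genes was 19 in the 12 and 27 in the 13. Their summed level was 21353 CPM in the median cell of the 13, and 5016 and 5409 CPM in the middle cells of the 12. Detected genes went the other way, with 2299 in the median cell of the 13 and 2869 and 3449 in the middle cells of the 12. What part this has in the shares of single genes was not tested. The other groups split unevenly, into 20 and 2, 2 and 8, and 19 and 4 cells. Within each of the 4 groups, the share of cells with Plk4 was 10, 0, 34.6 and 23.7 percentage points higher where 10 or more replication genes were found. For Kif15 these differences were -10, 0, 12.8 and 78.9 points, and for Ccnb2 they were -65, 12.5, -50.6 and -15.8 points, so neither gene had 1 direction in all groups. The genes named here were chosen after their values were seen.

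Summed over all cells of a group, the 42 genes made up 2396 CPM in unselected and 929 CPM in gated wild-type cells, and 3796 and 1645 CPM in the knockout. All 42 reached 5 CPM in at least 1 group, as did 10554 of all genes. Differences between groups are given as log2 ratios of CPM plus 1, which understates them for genes at low levels. Lower or higher means a difference of at least 2-fold whose direction also held for the mean CPM over cells, unless stated otherwise. This rule uses size alone and is no test. The 4 comparisons share their groups, so they are not separate evidence.

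Gated wild-type cells had most of the genes at lower levels than unselected wild-type cells. Of the 42, 29 were at least 2-fold lower and 2 higher, with a median log2 ratio of -1.53. Over all measured genes 19.9% were lower and 15.2% higher, with a median of -0.12. Among the genes of chromosome structure all 7 were lower, with a median of -2.40. Top2a stood at 127 CPM (95% Poisson interval 124 to 131) in unselected and 16.5 CPM (15.4 to 17.6) in gated cells. Mki67 stood at 176 and 78.9 CPM, Smc2 at 107 and 18.2, Smc4 at 85.7 and 25 CPM, and Ncapg at 43.9 and 1.04. Of the spindle genes 5 of 6 were lower (median -2.21), with Kif11 at 61.1 CPM in unselected and 2.01 in gated cells (log2 ratio -4.37). Plk4 had the lowest ratio of all, at 37.8 CPM (35.9 to 39.8) and 0.260 CPM (0.142 to 0.437), a ratio of -4.94. In the wild-type gated group 1 cell held 92.9% of the Plk4 counts, 89.3% of those of Ncapg and 84.3% of those of Kif11.

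Genes of entry into mitosis and of its end differed less evenly across the wild-type gate. The inhibitory kinase Pkmyt1 stood at 95.6 CPM in unselected and 4.43 in gated cells, and Ccna2 at 126 and 28.9. Cdk1 stood at 94.2 and 41.7 CPM. Ccnb2 went the other way, with 51.8 CPM in unselected and 105 in gated cells (log2 ratio 1.01). Of the 6 genes of the spindle checkpoint and anaphase, 1 was lower (Ube2c, the ubiquitin-conjugating enzyme of anaphase, at 40.0 and 15.5 CPM) and 1 higher, and their median was -0.21, which turned to 0.24 under spike-in scaling. Cdc20 stood at 40.1 and 39.9 CPM and Bub1b at 23 and 23.9. The gene counted as higher was Ttk, which had no count in 78 wild-type unselected cells and stood at 2.75 CPM in gated cells, all from 1 cell. With 3 counts in the whole group as the limit that 0 counts allow, the summed level is at least 35.8-fold higher. That limit takes reads as independent, which they are not. By cell, Ttk was in 0 of 78 unselected and 1 of 90 gated cells, too few to give a smallest fold. Cenpa stood at 43.6 and 80.7 CPM (0.87), short of the 2-fold rule. Of the cytokinesis genes 5 of 7 were lower, among them Prc1, which bundles midzone microtubules, at 61.4 and 4.72 CPM, and Racgap1, a subunit of centralspindlin, at 101 and 29.1 CPM.

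In knockout cells the gate went with lower levels per gene count as well, but this depended on the scaling. Of the 42 genes 30 were at least 2-fold lower and 1 higher (median -1.21), against 22% lower and 12.4% higher among all measured genes (median -0.26). With trimmed-mean (TMM) factors 18 were lower and 2 higher, against 15.7% and 16.3% of all measured genes. With median-of-ratios size factors 19 were lower and 2 higher, against 16.2% and 15.8%. With spike-in scaling 1 was lower, 6 were higher and the median was 0.11. Of all measured genes 4.37% were lower and 50.6% higher under spike-in scaling. This scaling moved the median of all genes to 1.01 in this comparison, to 0.32 for the wild-type gate, and to -0.38 and 0.35 for the knockout in unselected and gated cells. Taken relative to all genes, the 42 genes stood at -0.95 as given and at -0.90 under spike-in scaling in the knockout, and at -1.40 and -1.41 in wild type. The direction of 23 of the 42 genes turned under spike-in scaling in the knockout, Mki67, Top2a, Ccna2, Cdk1 and Cenpa among them, and that of 2 in wild type.

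Per gene count, Mki67 stood at 345 CPM in unselected and 143 CPM in gated knockout cells, and Top2a at 225 and 109. The 7 chromosome structure genes were all lower (median -1.26, but 0.07 under spike-in scaling), as were the 3 centromere genes (-1.23, but 0.09). Of the checkpoint and anaphase genes 4 of 6 were lower, with Cdc20 at 208 and 55.3 CPM (-1.89) and Bub1b at 93.6 and 25.4 CPM (-1.84), and these 2 kept their direction under spike-in scaling. Ect2 had the lowest ratio, at 43.6 and 3.27 CPM (-3.39). Ttk was higher, at 1.30 and 16 CPM (2.89), and 1 cell held 60.6% of its knockout gated counts. Pttg1 stood at 12.9 and 23.3 CPM (0.80).

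**Figure D5:**
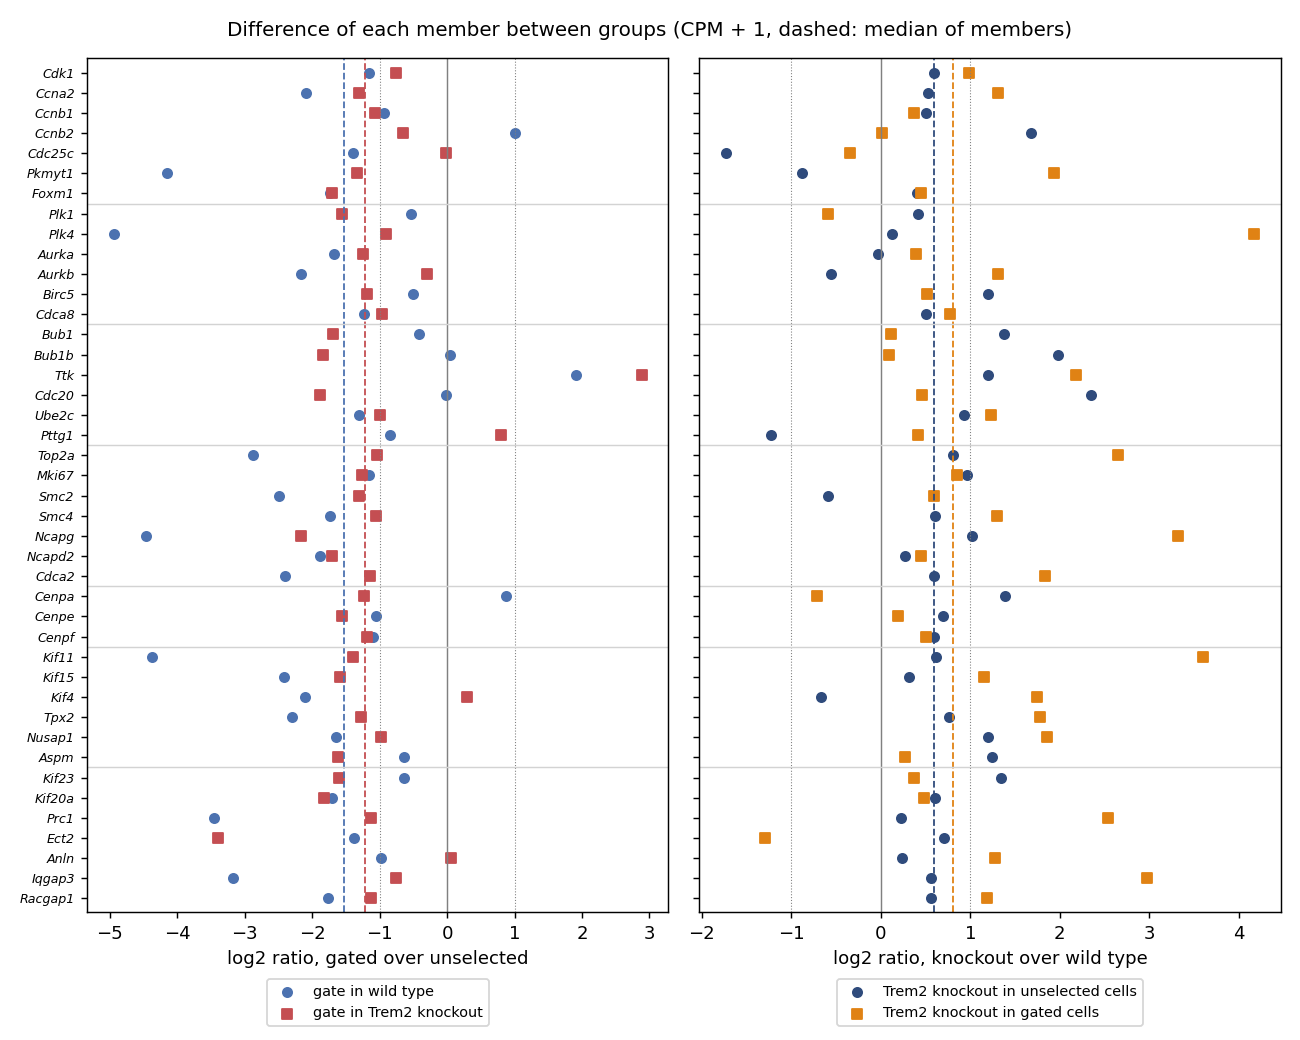
Log2 ratio of CPM plus 1 for each of the 42 genes, for the gate in both genotypes (left) and for the knockout in both gates (right); dashed lines are the medians over the genes and dotted lines mark 2-fold. In the left panel most points of both genotypes lie below 0 (medians -1.53 and -1.21, the latter 0.11 under spike-in scaling), and in the right panel most lie above 0 (medians 0.59 and 0.81).

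The comparison of the genotypes in unselected cells called fewer of the genes. In knockout unselected cells 11 of the 42 genes were at least 2-fold higher than in wild-type unselected cells and 2 were lower (median 0.59), against 16.5% higher and 13.3% lower among all measured genes (median 0.05). With spike-in scaling 3 were higher and 6 lower, and the median was 0.11 (0.49 relative to all genes, against 0.54 as given). Among all measured genes 9.59% were higher and 22.4% lower under that scaling. The checkpoint and anaphase genes stood highest, with 4 of 6 higher, 1 lower and a median of 1.29 (0.87 under spike-in scaling). Under spike-in scaling 2 of these 6 were higher and 1 lower. Ttk is counted among the 4, with no count in wild type and 1.30 CPM in the knockout, where 1 cell held 86.5% of its counts. Cdc20 stood at 40.1 CPM in wild-type and 208 in knockout unselected cells (2.35), Bub1b at 23 and 93.6 CPM (1.98), and its partner kinase Bub1 at 20.9 and 56.1 CPM (1.38). Ccnb2 stood at 51.8 and 168 CPM (1.68), Cenpa at 43.6 and 116 CPM (1.39) and Birc5 at 59.8 and 139 CPM (1.20). The lower genes were the phosphatase Cdc25c, which activates Cdk1, at 23.4 and 6.38 CPM (-1.73), and Pttg1 at 31.7 and 12.9 CPM (-1.23). The share of cells with several of the genes was 28.2% in wild-type and 27.8% in knockout unselected cells.

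Gated knockout cells had more of the genes at higher levels than gated wild-type cells. By the 2-fold rule 19 of the 42 were higher and 1 was lower (median 0.81), against 11.4% higher and 12% lower among all measured genes (median 0.00). Under spike-in scaling 22 were higher and 1 lower, against 20.2% and 8.36% of all measured genes, and no gene changed direction. Of the spindle genes 5 of 6 were higher (median 1.76), with Kif11 at 2.01 and 35.6 CPM (3.60) and Tpx2, which activates Aurka on the spindle, at 8.18 and 30.5 CPM (1.78). Of the chromosome structure genes 4 of 7 were higher, with Top2a at 16.5 and 109 CPM (2.65) and Ncapg at 1.04 and 19.4 CPM (3.32). Plk4 had the largest ratio, at 0.260 and 21.8 CPM (4.17), and Iqgap3, a scaffold of the cell cortex, stood at 2.85 and 29.2 CPM (2.97). Ccnb2 stood at 105 and 106 CPM. The lower gene was Ect2, at 9.47 and 3.27 CPM (-1.29), and without the cell of each group with the most counts of these genes 0 of the 42 were lower.

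In the cells with several of the genes, lower and higher were set by the 2-fold difference in summed CPM plus 1 alone. The mean CPM over cells was not checked here. Restricted in this way, the comparisons gave another picture for the gated wild-type cells. Their 42 genes summed to 5903 CPM against 6652 in the wild-type unselected cells, with 14 genes lower and 4 higher (median -0.38), while among all genes 34.7% were lower and 21.6% higher (median -0.25). The median cell went the other way, with 5906 CPM in gated and 2286 CPM in unselected cells, and with 318 and 59.5 per 1000 spike-in counts. Kif15 and Plk4 had no count in the 10 gated cells. In the unselected wild-type ones they stood at 177 and 80.9 CPM, which makes the gated levels at least 360.0-fold and 165-fold lower by the limit of 3 counts. These bounds take reads as independent, which they are not. By cell, 0 of 10 allows shares of up to 30.0%. These bounds depend on the threshold of 10 genes: among the 80 other gated cells 4 had Kif15 and 1 had Plk4, and over all cells Kif15 stood at 56.8 CPM in unselected and 9.82 CPM in gated wild-type cells. Between the knockout groups 32 were lower in gated cells and 1 higher (median -1.26, sums of 5034 and 12072 CPM), against 25% and 21.5% of all genes. Per 1000 spike-in counts the median knockout cell had 190.0 in gated and 184 in unselected cells. The numbers of lower and higher genes in these cells were not repeated with spike-in scaling. For the knockout in unselected cells 14 were higher and 1 lower (median 0.79), against 24.3% and 22.1%. For the knockout in gated cells 10 were higher and 8 lower (median -0.26), against 31.4% and 17.9%. In gated cells the knockout thus had the larger share of cells with several genes (23 of 76 against 10 of 90), while the summed level within those cells was 5034 CPM against 5903 CPM in wild type.

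Other genes of the cell cycle were read from lists. Of 60 measured other genes of mitosis, 35 were lower and 2 higher across the gate in wild type and 33 and 1 in the knockout (4 lower and 8 higher of 59 under spike-in scaling). For the knockout in unselected cells 4 were lower and 18 higher (8 and 6 of 59 under spike-in scaling), and in gated cells 4 and 26. Of the 33 DNA replication genes 27 were lower and 1 higher across the wild-type gate (median -2.05). The helicase subunit Mcm6 stood at 265, 67.9, 181 and 113 CPM in the order of groups used above, and Rrm2, a subunit of ribonucleotide reductase, at 128, 21.0, 170.4 and 77.9 CPM. Across the knockout gate 13 replication genes were lower and 1 higher (median -0.73, but 0.59 under spike-in scaling). For the knockout in unselected cells 5 were lower and 3 higher (median -0.22), and under spike-in scaling 12 and 2 (median -0.70). In gated cells 2 were lower and 14 higher, and under spike-in scaling 0 and 24. Of 14 genes of G1 control 9 were lower and 1 higher across the wild-type gate. Among 12 measured brakes of the cycle 1 was lower and 0 were higher. Cdkn1a, the inhibitor p21, stood at 144, 87.9, 160.4 and 99.4 CPM.

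Which other genes were found in the cells with several mitosis genes was described within each group, as the share of such cells with a gene minus the share of the other cells. A gene was counted when this was 20 percentage points or more in each of the 4 groups, which held for 258 of 10512 genes (2.45%). Of the 60 other genes of mitosis 27 were counted, and the same number when the other cells were matched on detected genes, where 0.875% of all genes were counted. Matching left a gap in wild-type unselected cells (medians of 3502 and 2532 detected genes) and in knockout gated cells (4533 and 3847). Pbk, a mitotic kinase, was in 86.4%, 60%, 64% and 82.6% of the cells with several genes and in 3.57%, 2.5%, 0% and 0% of the other cells. Spc24, a subunit of the Ndc80 kinetochore complex, was in 59.1%, 70%, 60% and 60.9% against 0%, 6.25%, 0% and 1.89%. Of the replication genes Rrm1 and Fen1 were counted, 2 of 33. Of the G1 genes Cdk4 was counted, 1 of 14, and of the brakes Fzr1 and Cdkn2c, 2 of 12. With cells matched on detected genes, 3 replication genes, 0 G1 genes and 1 brake were counted. Rrm1 (smallest matched difference 0 points), Cdk4 (10 points) and Fzr1 (10 points) were then no longer counted. No gene was 20 points lower in each group (0 of 10512).

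Outside the lists the genes with the largest smallest-group difference were Hmgb2, H2afx, Tacc3, Tubb4b, Nrm, Nt5dc2, Rpa1, Tmpo, 2810417H13Rik and Sae1. With cells matched on detected genes the smallest difference of Sae1 was 17.4 points, under the limit of 20, and that of Tmpo was 20 points. Hmgb2, a chromatin protein, was in 95.5%, 90%, 92% and 87% of the cells with several genes and in 32.1%, 17.5%, 27.7% and 17% of the others. Tacc3, a spindle protein, was in 72.7%, 90%, 76% and 95.7% against 16.1%, 8.75%, 4.62% and 17%. The histone variant H2afx was in 81.8%, 80%, 92% and 91.3% against 19.6%, 11.2%, 10.8% and 20.8%.

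The cells with several of the genes carried the markers of microglia. At least 8 of 10 such markers were found in 79 of the 80 cells and in 247 of the 254 others. Of 12 genes of homeostatic microglia the median cell had 12, 11, 11 and 11 in the cells with several mitosis genes and 12, 11, 11 and 10 in the others, so that detection could hardly differ. The summed homeostatic genes had medians of 52361, 25569, 40179 and 20056 CPM in the cells with several genes and 44793, 30686, 51775 and 20808 CPM in the others. Gpnmb was detected in 10 of 10 wild-type gated cells with several genes and 53 of the 80 others, and in 23 of 23 and 49 of 53 knockout gated cells. Spp1, a secreted protein of the gated state, was in 11 of 22 wild-type unselected cells with several genes and 20 of 56 others, and in 12 of 25 and 13 of 65 in the knockout. Among gated cells it was in 8 of 10 and 71 of 80 in wild type and in 23 of 23 and 51 of 53 in the knockout. The cells with several genes had more detected genes in every group, whose part in these shares of Gpnmb and Spp1 was not tested. In the cells with several genes 5 of 8 monocyte, 6 of 9 neutrophil, 5 of 7 lymphocyte, 6 of 8 oligodendrocyte lineage and 6 of 9 vascular markers were at 0, as were 3 of 10 neural and 1 of 5 erythroid markers. The neural markers summed to 66.8 CPM in these cells and 61.4 CPM in the others, and at least 1 was found in 12 of 22, 6 of 10, 15 of 25 and 9 of 23 cells, against 13 of 56, 25 of 80, 12 of 65 and 18 of 53 others. At least 1 lymphocyte marker was found in 11, 8, 10 and 16 of the cells with several genes and in 23, 31, 15 and 25 of the others. Among the 80 cells 1 had 3 or more neural, 4 had 3 or more erythroid and 0 had 3 or more lymphocyte markers. The part of these markers in the results was not tested. Of 10 markers of border macrophages Lyve1, Cd163 and Clec12a were at 0, and the list summed to 1176 CPM against 1809 CPM in the other cells. By detection the order was the other way, with 3 or more of these markers in 49 of the 80 cells and 115 of the 254 others. Across the gate 9 of these 10 were higher in wild type and 7 of 10 in the knockout, against 15.2% and 12.4% of all measured genes. The part of these markers in the differences was not tested.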

How the data were processed

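The deposited file holds unnormalized counts for each gene and for 92 spike-in RNAs in 369 single cells. Reads were trimmed, aligned and counted by the authors; the submitters' processing notes name Trim Galore 0.4.3, STAR 2.5.3a, Picard, HTSeq and mm10. Neither the annotation nor the strand setting is given in the sources used here. Cells had to pass the 3 quality criteria of the labels. Doublets were not called, since each well was sorted to hold 1 cell.

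CPM are counts summed over a group's cells, scaled by the group's total without spike-ins, with Poisson intervals (exact). Shares of cells have Clopper-Pearson intervals (95%) and use cells thinned without replacement to 100000 gene counts; 0 passing cells had fewer. The scripts used Python 3.11.15, numpy 2.4.6, pandas 2.3.3, scipy 1.17.1, R 4.3.3 and, for TMM factors, edgeR 4.0.16, and were tested on simulated data. With 1 sample per group, no model and no p-value was used. The genes and all lists were chosen with earlier results of these data known. Every one of the 42 genes could be named. Those given in full are the 12 with the highest CPM in any group and those with extreme ratios. From other lists up to 4 genes by difference and 4 by CPM could be named, and 10 genes in no list. Of 226 listed other symbols 9 were matched by an older symbol and 2 were not matched. Gene names and coordinates follow GENCODE M21 and RefSeq.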

Additional observations from a re-analysis of the deposited data

Results flagged for a closer look

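For several genes the gate or the knockout went opposite ways in the groups compared. A gene was flagged when its log2 ratios had opposite signs and both passed a set size. The share of all measured genes that meet this rule was not counted, so these genes are not shown to stand out. None of these differences was tested, since each group is 1 sample. The share of cells with 10 or more of the genes was 17.1 points lower in gated than in unselected wild-type cells (a difference of -17.1) and 2.49 points higher in knockout cells. Across the gate, Ccnb2 had log2 ratios of 1.01 in wild type and -0.66 in the knockout, Cenpa of 0.87 and -1.23, and Pttg1 of -0.85 and 0.80. Under spike-in scaling the knockout values of Ccnb2 and Cenpa turned to the other sign.

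For the knockout against wild type, Cenpa had log2 ratios of 1.39 in unselected and -0.71 in gated cells, and Ect2 of 0.71 and -1.29. Pkmyt1 had -0.88 and 1.94, Aurkb, the kinase of the chromosomal passenger complex, -0.56 and 1.31, Smc2 -0.59 and 0.60, and the chromosome-bound kinesin Kif4 -0.67 and 1.74.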

How the results depend on the processing

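Of the values that answer a comparison, 95 stayed within the set limits under the alternatives, 11 moved and 1 turned its sign. These limits were wide. Shares and levels had to stay within intervals around the value as given, and counts of genes within a set fold. A fall from 29 to 21 lower genes across the wild-type gate, under spike-in scaling, was still within them. Of the other values checked in this way, 45 stayed, 17 moved and 1 turned its sign. The count of genes lower across the knockout gate was 30 and became 18 with TMM factors, 19 with median-of-ratios size factors and 1 with spike-in scaling, where the median turned from -1.21 to 0.11. For the knockout in unselected cells spike-in scaling gave 6 lower and 3 higher, against 22.4% and 9.59% of all measured genes. For the knockout in gated cells the count of lower genes became 0 without the cell of each group with the most counts. At 5 or more genes the share of cells was 22.2% in wild-type gated and 40.0% in knockout unselected cells, and at 20 or more it was 14.4% in knockout unselected cells, with a median level of 21353 CPM. The log2 ratio of the median levels across the knockout gate was -1.75 by CPM and 0.05 per spike-in count. At 30 percentage points 14 of the other mitosis genes were found with several genes, against 0.580% of all genes. Leaving out the 20 cells with under 1000 CPM was chosen after seeing the data and gave 31, 29, 2 and 1 lower and 1, 2, 10 and 20 higher genes in the 4 comparisons, against 20.1%, 22.1%, 13.9% and 12.3% of all genes lower and 15.6%, 12.4%, 17.3% and 11.9% higher. No paired analysis was possible because each group is 1 sample and the replicate numbers only name cells.

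No interval covers genes missed by amplification in a cell. The gated wild-type values rest on 10 cells.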
